A study of Mus musculus with 6 samples.

Results

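The 10 genes described here encode the basement membrane of parietal endoderm and the factors that help to assemble it: Col4a1, Col4a2, Lama1, Lamb1, Lamc1, Nid1, Nid2, Sparc, Hspg2 and Serpinh1. They were chosen by symbol, and all 10 had a row among the 25904 genes of the deposited table. Parietal endoderm is the extraembryonic cell layer that lays down Reichert's membrane, an unusually thick basement membrane of the rodent embryo. In a basement membrane, collagen IV and laminin form separate networks, which nidogens and the proteoglycan perlecan tie together. F9 cells, a mouse teratocarcinoma line, take on endoderm-like features in retinoic acid (RA), the ligand of nuclear receptors that bind DNA as pairs of a retinoic acid receptor and a retinoid X receptor.

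The cells expressed a short hairpin RNA named for Ctbp2, a transcriptional corepressor (shCtbp2), for the retinoid X receptor, with no receptor gene given in the labels (shRxr), or for GFP as control (shGFP). Each line was taken after 48 h in 1 µM all-trans RA and untreated (UT), all in medium with charcoal-stripped serum, so that 6 groups hold 1 library each. RNA was sequenced in bulk, the labels name no separate cultures, clones or hairpin sequences, and the 6 libraries held 9955808 to 13322506 reads counted in genes. Levels are normalised reads, the reads of a gene per 10000000 reads counted in genes, and they do not tell fewer cells of a type from less RNA per cell. Ctbp2 stood at 55.4 in RA and 210.1 untreated in shCtbp2 cells, against 701 and 1811 in shGFP cells, and Rxra at 82.4 and 73.7 in shRxr cells, against 805 and 520.3 in shGFP cells. 

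Markers of the cell types that could be in the cultures were read in the same libraries. Here a gene rose or fell if limma called it for RA over the 3 lines (adjusted p under 0.05, described below). Of all 12332 genes tested 10.8% rose and 4.63% fell. Of 14 parietal endoderm markers, 6 of which are among the 10 genes, 13 were tested, 9 rose with RA and none fell. The 14 summed to 25846 to 45996 normalised reads in RA and 16533 to 22862 untreated, most of it from the 6 shared genes, which also make 4 of the 9 that rose. The 8 others summed to 3383 to 9479 in RA and 2166 to 5368 untreated, ranges that overlap, and 5 of them rose (Plat, Pth1r, Krt18, Krt19 and Snai1). Thbd, which encodes thrombomodulin, a defining marker of the layer, stayed at 11.9 to 17.1 in RA and 16.7 to 17.7 untreated, too low to test. All 8 regulators of primitive endoderm, the lineage from which parietal endoderm comes, rose, and they summed to 2418 to 4737 in RA and 651 to 720 untreated. The visceral endoderm markers Afp, Ttr and Apoa1 reached at most 4.50 in any library. Of 9 visceral endoderm markers 4 were tested, Cubn and Ihh rose and Hnf4a fell, and the 9 summed to 265 to 434 in RA and 151 to 252 untreated. Fibroblast markers summed to 4564 to 8125 in RA and 5374 to 7783 untreated, most of it Fn1, which F9 cells also express. Col5a1 and Pdgfrb rose among the 3 fibroblast markers tested, Col1a1 reached at most 24.0, Col3a1 at most 0.805 and Dcn at most 2.01, and Postn had no read. Cdh5 rose among 3 endothelial markers tested, whose list summed to 652 to 1007 in RA and 1084 to 1200 untreated, most of it Pecam1. Blood markers summed to 72.8 to 97.4 in RA and 69.5 to 131 untreated, and the 1 tested, Cd68, was not called. Pluripotency markers summed to 36374 in shCtbp2 cells, 30461 in shRxr cells and 15718 in shGFP cells in RA, and to 41089 to 42100 untreated. Over the lines Sox2, Zfp42 and Tdgf1 fell. Most of the sum in shCtbp2_RA was Pou5f1, at 26185 in shCtbp2_RA, against 8529.9 in shGFP_RA. Nanog, at 5868 in shCtbp2_RA, against 3258 in shGFP_RA, and Tdgf1, at 594 in shCtbp2_RA, against 248 in shGFP_RA, were also higher. Sox2 stood at 1597 in shCtbp2_RA, against 1480.2 in shGFP_RA, and Zfp42 at 2129 in shCtbp2_RA, against 2201 in shGFP_RA. The part of these cell states in the results below was not tested.

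The first question was how far RA raised the basement membrane genes as a group. Together the 10 genes took 0.439% of the reads in shCtbp2_RA, 0.360% in shRxr_RA and 0.599% in shGFP_RA, against 0.277% in shCtbp2_UT, 0.244% in shRxr_UT and 0.244% in shGFP_UT. In limma over all 6 libraries, where the 3 lines stand in as replicates of the treatment, 6 of the 10 genes rose with RA (Benjamini-Hochberg adjusted p under 0.05 over 12332 genes tested). They were Serpinh1, Col4a2, Lamb1, Lama1, Col4a1 and Hspg2. None of the 10 fell, and 7 had an unadjusted p under 0.05. Among all genes tested 10.8% were raised and 4.63% lowered, and 31% had an unadjusted p under 0.05. The 10 genes had a median log2 change of 1.25, against 0.07 for all genes tested. The 1327 genes raised and 571 lowered became 1289 and 944 when libraries were scaled by medians of ratios, and 1577 and 1300 after GC content and length were corrected for. Without the shGFP line only Col4a2 and Serpinh1 of the 10 were called, and without the shCtbp2 line, or the shCtbp2_RA library alone, Hspg2 was lost and 5 of the 10 were called. The latter 2 fits are not separate checks. With a line term, shCtbp2_UT alone adds nothing to the RA estimate, and the log2 change of Hspg2 was 0.91 in both. No group has replicate libraries, so the p-values do not measure a spread between replicates. With line and treatment as terms, the residual (2 degrees of freedom) holds any difference between the lines in how they responded to RA. limma moderates it with 11.2 prior degrees of freedom drawn from all genes.

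**Figure D1:**
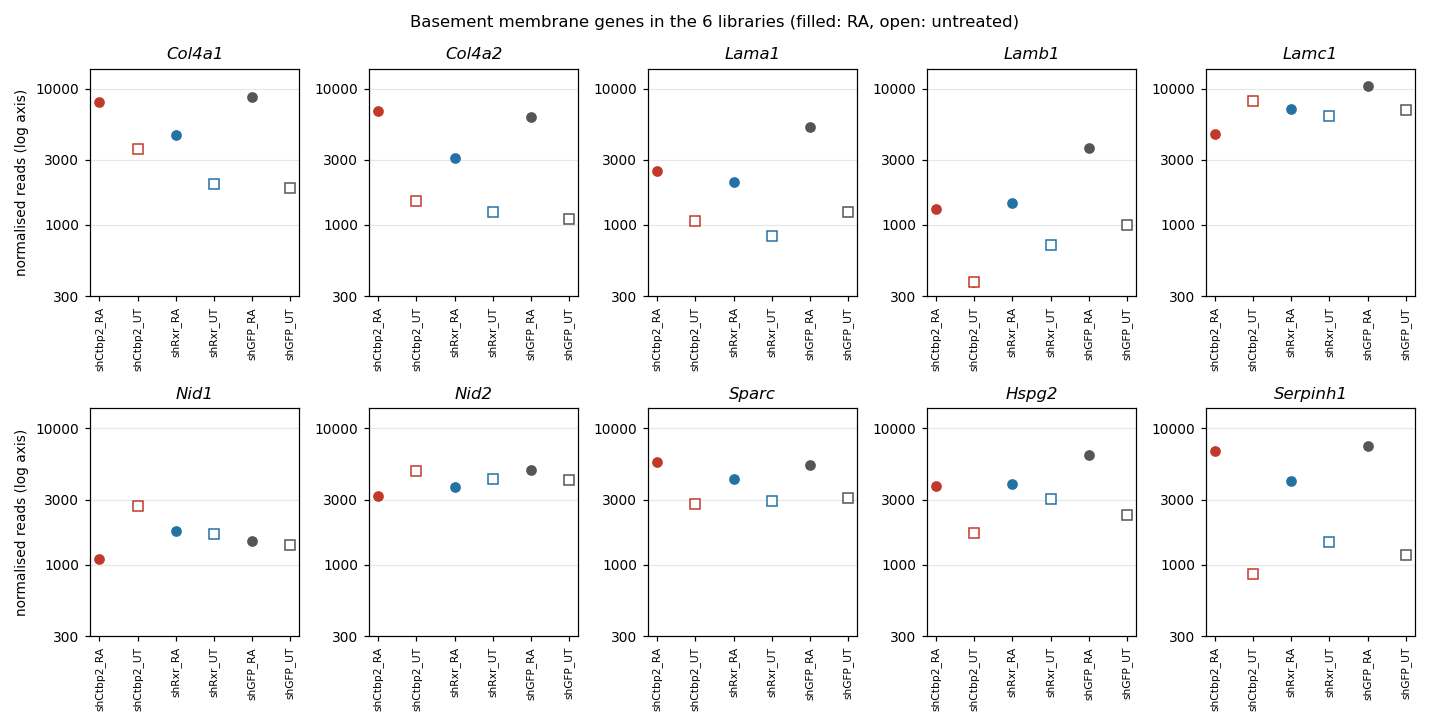
Normalised reads (reads per 10000000 counted in genes, log axis) of the 10 basement membrane genes in each of the 6 libraries, with RA left of untreated in each line; 1 library per point. Serpinh1 spans 859 to 7421, while Nid2 stays between 3224 and 4959.

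Per kilobase of exon, the levels of the 10 genes were reordered by RA. In shGFP_RA Serpinh1 was highest at 3037 normalised reads per kilobase, followed by Sparc at 1435, Lamc1 at 1264, Col4a1 at 1162, Nid2 at 958 and Col4a2 at 934. Lama1 at 539, Hspg2 at 445, Lamb1 at 372 and Nid1 at 217 were the lowest in that library. In shGFP_UT Lamc1 at 845, Sparc at 817 and Nid2 at 815 led, and Lamb1 was last at 101.1. With 1 library per group no spread is available for neighbours in these orders.

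Collagen IV, the network-forming collagen, is made of the chains Col4a1 and Col4a2, whose genes lie head to head. Both genes rose with RA. In the mm9 coordinates of the table, Col4a1 (ENSMUSG00000031502) spans chromosome 8, 11198423 to 11312826, and Col4a2 (ENSMUSG00000031503) 11312805 to 11449287, so that the 2 gene models overlap by 22 bases. The strand setting of the counting is not given in the sources used here, and reads in that overlap cannot be assigned. RefSeq promoter windows on GRCm38.p6 (250 bases before to 50 after the annotated start) were available for 7 of the 10 genes. The pair is shown because the windows, chr8:11312777-11313076 on the minus strand for Col4a1 and chr8:11312555-11312854 on the plus strand for Col4a2, share 78 bases. Capitals mark GGGCGG (a GC box) and CCAAT, on either strand (CCGCCC and ATTGG on the other).
Col4a1: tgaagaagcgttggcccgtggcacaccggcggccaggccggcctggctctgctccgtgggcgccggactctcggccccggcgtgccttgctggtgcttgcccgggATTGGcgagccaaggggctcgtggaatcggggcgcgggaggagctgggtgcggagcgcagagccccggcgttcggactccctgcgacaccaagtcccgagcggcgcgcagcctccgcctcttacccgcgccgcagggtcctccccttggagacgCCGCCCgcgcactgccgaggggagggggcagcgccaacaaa
Col4a2: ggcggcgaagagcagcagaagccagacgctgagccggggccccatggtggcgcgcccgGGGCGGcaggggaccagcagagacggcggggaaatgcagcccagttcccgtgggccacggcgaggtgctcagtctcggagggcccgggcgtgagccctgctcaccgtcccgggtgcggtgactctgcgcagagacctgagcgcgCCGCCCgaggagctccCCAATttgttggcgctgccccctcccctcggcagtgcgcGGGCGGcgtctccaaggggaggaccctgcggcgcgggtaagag

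Col4a1 stood at 8028 normalised reads in shCtbp2_RA, 4553 in shRxr_RA and 8672 in shGFP_RA, against 3604 in shCtbp2_UT, 1990.3 in shRxr_UT and 1872 in shGFP_UT. Every RA library was above every untreated one. The share of all genes for which this holds was not counted, so such separations, here and for the genes below, are descriptions only. The RA to untreated fold was 2.23 (95% counting interval 2.15 to 2.31) in shCtbp2 cells, 2.29 (2.18 to 2.41) in shRxr cells and 4.63 (4.43 to 4.85) in shGFP cells. The 2 knock-down lines had like folds but not like levels: in shCtbp2 cells both libraries were higher than in shRxr cells. Over the lines Col4a1 rose by a log2 of 1.52 (SE 0.28, limma, adjusted p 0.00315). These intervals, and those below, cover counting error only.

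Col4a2 stood at 6797 in shCtbp2_RA, 3092 in shRxr_RA and 6184 in shGFP_RA, against 1505 in shCtbp2_UT, 1235 in shRxr_UT and 1104 in shGFP_UT. The groups did not overlap, and the untreated levels were closer together than those of Col4a1. Its folds were 4.51 (4.29 to 4.76) in shCtbp2 cells, 2.50 (2.35 to 2.66) in shRxr cells and 5.60 (5.29 to 5.93) in shGFP cells. Over the lines it rose by 1.99 (SE 0.28, limma, adjusted p 0.000591). The fold of Col4a2 was above that of Col4a1 in each line, with intervals that do not meet in shCtbp2 and shGFP cells and that meet in shRxr cells.

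Laminin-111, the early embryonic laminin, is a trimer of the chains Lama1, Lamb1 and Lamc1. Lama1 and Lamb1 rose with RA, and Lamc1 did not pass the test. Lama1 (ENSMUSG00000032796, chromosome 17, 68046605 to 68171985) encodes the chain that binds receptors on the cell surface. It stood at 2501 in shCtbp2_RA, 2078 in shRxr_RA and 5214 in shGFP_RA, against 1062 in shCtbp2_UT, 830.3 in shRxr_UT and 1248 in shGFP_UT. All RA libraries were above all untreated ones, and shGFP_RA was above the others. The folds were 2.36 (2.20 to 2.52) in shCtbp2 cells, 2.50 (2.32 to 2.70) in shRxr cells and 4.18 (3.95 to 4.42) in shGFP cells. Over the lines Lama1 rose by 1.53 (SE 0.27, limma, adjusted p 0.00230).

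Lamb1 (ENSMUSG00000002900, chromosome 12, 31950099 to 32014509), the beta chain, had the lowest level per length of the 3 chains in every library. It stood at 1303 in shCtbp2_RA, 1441 in shRxr_RA and 3690.0 in shGFP_RA, against 380.5 in shCtbp2_UT, 716 in shRxr_UT and 1003 in shGFP_UT. Its levels in RA and untreated cells did not overlap, and shCtbp2_UT stood below every other library. The folds were 3.42 (3.08 to 3.82) in shCtbp2 cells, 2.01 (1.85 to 2.19) in shRxr cells and 3.68 (3.46 to 3.92) in shGFP cells, and over the lines Lamb1 rose by 1.54 (SE 0.27, limma, adjusted p 0.00235). That call was lost with no line term (adjusted p 0.0822) and without the shGFP line (0.191), over a range of 4.15e-05 to 0.191 in 13 alternatives. Its promoter window (chr12:31265043-31265342, GRCm38.p6, plus strand) holds GGGCGG on the other strand at 2 places and CCAAT at 1. It is shown, with the same letters in capitals, as the only laminin chain with a window, since none was available for Lama1, Lamc1 and Nid2. Lamb1 also had the lowest level of the laminin chains in the untreated shCtbp2 cells.
Lamb1: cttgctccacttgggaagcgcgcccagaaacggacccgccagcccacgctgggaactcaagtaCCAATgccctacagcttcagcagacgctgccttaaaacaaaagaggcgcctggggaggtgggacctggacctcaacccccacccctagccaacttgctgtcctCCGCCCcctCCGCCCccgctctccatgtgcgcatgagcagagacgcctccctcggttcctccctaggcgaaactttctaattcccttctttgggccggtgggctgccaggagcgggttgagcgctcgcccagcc

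Lamc1 (ENSMUSG00000026478, chromosome 1, 155066052 to 155179916), the gamma chain shared by most laminins, behaved differently between lines. It stood at 4659.8 in shCtbp2_RA, 7047 in shRxr_RA and 10457.5 in shGFP_RA, against 8165 in shCtbp2_UT, 6243 in shRxr_UT and 6993 in shGFP_UT. The RA library was the lowest of the 6 in shCtbp2 cells and the highest of the 6 in shGFP cells. Lamc1 was 1.75-fold lower in RA than untreated in shCtbp2 cells (1.69 to 1.81), 1.13-fold higher in shRxr cells (1.09 to 1.17) and 1.5-fold higher in shGFP cells (1.46 to 1.54). The log2 change over the lines was -0.02 (SE 0.30, limma, adjusted p 0.974), and it was 0.38 without the shCtbp2 line.

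Within 1 library, the ratio of partner chains does not depend on how libraries were scaled. Partners differ in GC content, as with 57.7% for Col4a1 and 60.6% for Col4a2. The ratios given here are not corrected for it, and its part in them was not tested. Per length, Lama1 over Lamb1 was 1.97 (1.84 to 2.10) in shCtbp2_RA, 1.48 (1.38 to 1.58) in shRxr_RA and 1.45 (1.4 to 1.5) in shGFP_RA, against 2.86 (2.57 to 3.19) in shCtbp2_UT, 1.19 (1.08 to 1.30) in shRxr_UT and 1.28 (1.18 to 1.38) in shGFP_UT. The ratio was thus higher in both shCtbp2 libraries than in any other. Lamc1 exceeded Lamb1 in every library, per length by 4.29 in shCtbp2_RA, 5.86 in shRxr_RA and 3.40 in shGFP_RA, against 25.7 (23.4 to 28.3) in shCtbp2_UT, 10.4 in shRxr_UT and 8.36 in shGFP_UT. Lamc1 also exceeded Lama1, by 2.18 in shCtbp2_RA, 3.97 in shRxr_RA and 2.35 in shGFP_RA, against 9.0 in shCtbp2_UT, 8.80 in shRxr_UT and 6.56 in shGFP_UT. In each line Lamc1 exceeded both partners by less in RA than untreated. Col4a1 over Col4a2 per length was 1.05 (1.01 to 1.08) in shCtbp2_RA, 1.31 in shRxr_RA and 1.24 in shGFP_RA, against 2.12 (2.01 to 2.24) in shCtbp2_UT, 1.43 in shRxr_UT and 1.5 in shGFP_UT. The protein holds more of the Col4a1 chain than of the Col4a2 chain. Without a GC correction, Col4a1 RNA was the higher of the pair in all 6 libraries, by least in shCtbp2_RA.

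**Figure D2:**
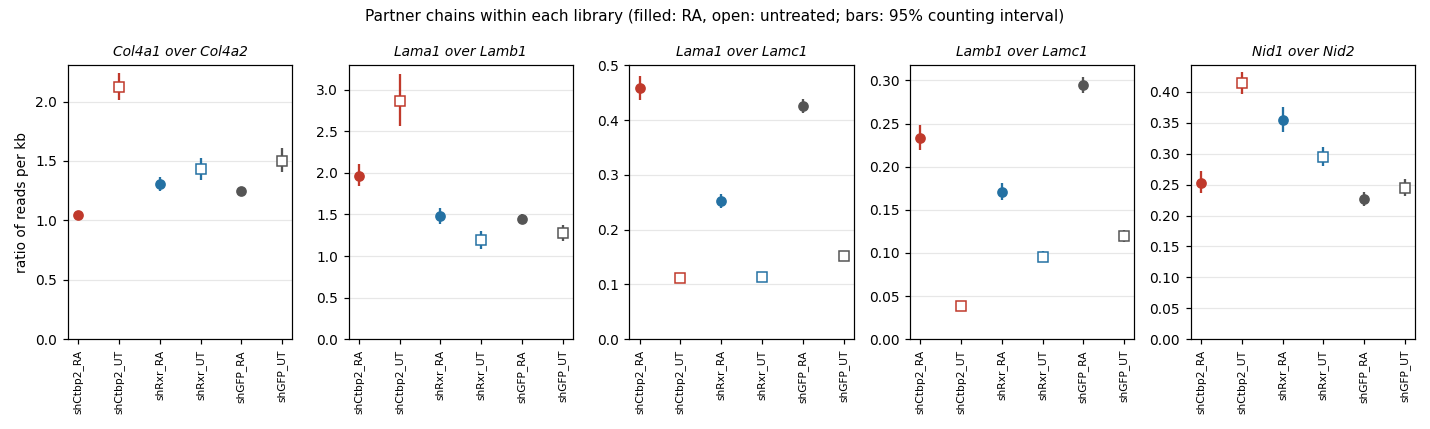
Ratios per exonic length of partner chains in each of the 6 libraries (linear axis), with RA left of untreated in each line and bars for 95% counting intervals. Lamb1 over Lamc1 is lowest in shCtbp2_UT at 0.0389 and highest in shGFP_RA at 0.294.

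Nidogens bind laminin and collagen IV and link the 2 networks. Neither Nid1 nor Nid2 was called for RA. Nid1 (ENSMUSG00000005397, chromosome 13, 13529869 to 13604542) stood at 1096 in shCtbp2_RA, 1767 in shRxr_RA and 1506 in shGFP_RA, against 2706 in shCtbp2_UT, 1693 in shRxr_UT and 1387 in shGFP_UT. The shCtbp2 line held both the lowest and the highest of the 6 values. Nid1 was 2.47-fold lower in RA than untreated in shCtbp2 cells (2.31 to 2.65). The RA to untreated fold was 1.04 in shRxr cells, where the interval of 0.978 to 1.11 includes no difference, and 1.09 in shGFP cells (1.02 to 1.16). The shRxr value turned to a log2 change of -0.04 with median-of-ratios scaling, and after the GC correction it was -0.02 in shRxr cells and -0.09 in shGFP cells. Over the lines the log2 change was -0.37 (SE 0.31, limma, adjusted p 0.44), and it was 0.09 without the shCtbp2 line. The Nid1 window (chr13:13437352-13437651, GRCm38.p6, plus strand) is given beside those of the raised genes, and it too holds GGGCGG and, on the other strand, CCAAT.
Nid1: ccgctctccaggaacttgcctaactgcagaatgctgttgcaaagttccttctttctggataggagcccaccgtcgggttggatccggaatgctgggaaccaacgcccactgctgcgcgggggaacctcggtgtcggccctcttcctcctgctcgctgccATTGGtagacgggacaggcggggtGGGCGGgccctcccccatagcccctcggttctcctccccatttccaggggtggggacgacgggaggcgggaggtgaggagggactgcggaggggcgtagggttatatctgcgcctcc

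Nid2 (ENSMUSG00000021806, chromosome 14, 20570479 to 20631009) was the higher of the nidogens, by 2.42 to 4.42 per length over the 6 libraries. It stood at 3224 in shCtbp2_RA, 3713 in shRxr_RA and 4959 in shGFP_RA, against 4873 in shCtbp2_UT, 4282 in shRxr_UT and 4216 in shGFP_UT. RA and untreated levels overlapped, with the lowest and the highest value both in RA. Nid2 was 1.51-fold lower in RA in shCtbp2 cells (1.45 to 1.58), 1.15-fold lower in shRxr cells (1.11 to 1.20) and 1.18-fold higher in shGFP cells (1.13 to 1.22), though lower in shGFP cells too after the GC correction (log2 change -0.12). Over the lines the log2 change was -0.19 (SE 0.27, limma, adjusted p 0.661), and it was 0.01 without the shCtbp2 line. The gene model overlaps 2700060E02Rik by 386 bases, a gene at 883 to 1136 normalised reads, and reads there cannot be told apart without strand.

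Serpinh1 (ENSMUSG00000070436, chromosome 7, 106493885 to 106501740) encodes Hsp47, the chaperone that binds collagen triple helices in the endoplasmic reticulum. It had the largest RA to untreated fold of the 10 genes in each line. Its counting interval met that of Col4a2 in shGFP cells and those of Lama1 and Col4a2 in shRxr cells. It stood at 6829 in shCtbp2_RA, 4138 in shRxr_RA and 7421 in shGFP_RA, against 859 in shCtbp2_UT, 1471 in shRxr_UT and 1186 in shGFP_UT. Its levels did not overlap between treatments. The folds were 7.95 (7.45 to 8.50) in shCtbp2 cells, 2.81 (2.66 to 2.98) in shRxr cells and 6.26 (5.92 to 6.62) in shGFP cells, so the fold in shCtbp2 cells came with the lowest untreated level. Over the lines it rose by 2.37 (SE 0.30, limma, adjusted p 0.000321). Its promoter window (chr7:99353190-99353489, GRCm38.p6, minus strand), shown because its gene responded most, holds GGGCGG once and no CCAAT.
Serpinh1: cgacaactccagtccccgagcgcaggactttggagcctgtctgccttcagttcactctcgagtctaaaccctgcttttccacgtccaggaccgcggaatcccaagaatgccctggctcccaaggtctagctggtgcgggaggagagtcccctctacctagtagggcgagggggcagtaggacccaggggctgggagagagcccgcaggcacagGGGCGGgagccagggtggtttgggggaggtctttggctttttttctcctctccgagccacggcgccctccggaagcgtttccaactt

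Hspg2 (ENSMUSG00000028763, chromosome 4, 137024634 to 137126545) encodes perlecan, the heparan sulfate proteoglycan of basement membranes. It stood at 3787 in shCtbp2_RA, 3927 in shRxr_RA and 6367 in shGFP_RA, against 1722 in shCtbp2_UT, 3028 in shRxr_UT and 2339 in shGFP_UT. The groups did not overlap, and the smallest gap was in shRxr cells. The folds were 2.20 (2.08 to 2.32) in shCtbp2 cells, 1.30 (1.24 to 1.36) in shRxr cells and 2.72 (2.61 to 2.84) in shGFP cells. Over the lines it rose by 0.98 (SE 0.28, limma, adjusted p 0.0304). That call was lost in 6 of 13 alternatives, whose adjusted p ran from 0.00862 to 0.717 over all of them. Among the 6, the fits without the shCtbp2 line and without shCtbp2_RA share the same RA log2 change, 0.91.

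Sparc (ENSMUSG00000018593, chromosome 11, 55208002 to 55233582) encodes a secreted collagen-binding glycoprotein abundant in parietal endoderm. It stood at 5653 in shCtbp2_RA, 4252 in shRxr_RA and 5436 in shGFP_RA, against 2777 in shCtbp2_UT, 2954.5 in shRxr_UT and 3096 in shGFP_UT. Every RA library was above every untreated one, and the untreated values lay close together. The folds were 2.04 (1.95 to 2.12) in shCtbp2 cells, 1.44 (1.38 to 1.51) in shRxr cells and 1.76 (1.69 to 1.83) in shGFP cells. The log2 change over the lines was 0.79 (SE 0.26, limma, adjusted p 0.0542), past the threshold only after the GC correction (adjusted p 0.0299) and with no line term (0.039), among adjusted p-values up to 0.702 over the 13 alternatives.

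Of the motifs searched in the 7 promoter windows, on both strands, GGGCGG was in 6 (all but Sparc), against 35.66% of the 32851 promoters in the RefSeq table, and CCAAT in 4 (Col4a1, Col4a2, Lamb1 and Nid1), against 37.41%. The GATA letters AGATAA (11.18% of all promoters) and TGATAA (9.053%), the receptor element unit AGGTCA (16.26%) and its direct repeat with 5 bases between (0.009132%) were in 0 of the 7. The only GGGCGG of Col4a1 lies in the 78 bases its window shares with Col4a2, so the same site counts for both genes. A match here is a description of letters in the window, and Nid1, which was not called, holds the same 2 motifs as Col4a1.

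Each line was then read separately, counting genes at least 2-fold apart on the scale log2(value + 10). In shCtbp2 cells 7 of the 10 genes were at least 2-fold higher in RA (15.1% of all genes tested) and 1, Nid1, at least 2-fold lower (19.3%). In shRxr cells 4 were higher (5.26%) and 0 lower (1.46%), with Lamb1 (2.01-fold in normalised reads) just outside the limit on that scale. In shGFP cells 6 were higher (13.4%) and 0 lower (7.07%). The median log2 change of the 10 genes was 1.14 in shCtbp2 cells, 0.76 in shRxr cells and 1.66 in shGFP cells, against 0.07, 0.09 and 0.12 for all genes tested. Values of the shCtbp2 response moved with GC content: across 12133 genes, which are not independent, the log2 change had a Spearman correlation with GC content of 0.62 in shCtbp2 cells, -0.06 in shRxr cells and 0.37 in shGFP cells. The 10 genes had 50.4% to 60.9% GC (median 54.2%, against 50.1% for genes tested). With GC and length corrected 4 of the 10 were at least 2-fold higher and 3, the set of Lamc1, Nid1 and Nid2, at least 2-fold lower in shCtbp2 cells. Of the 12332 genes tested, the 2377 at least 2-fold lower became 981 with this correction. The corrected count of genes higher is not given here. The part of GC content in the response was not tested.

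**Figure D3:**
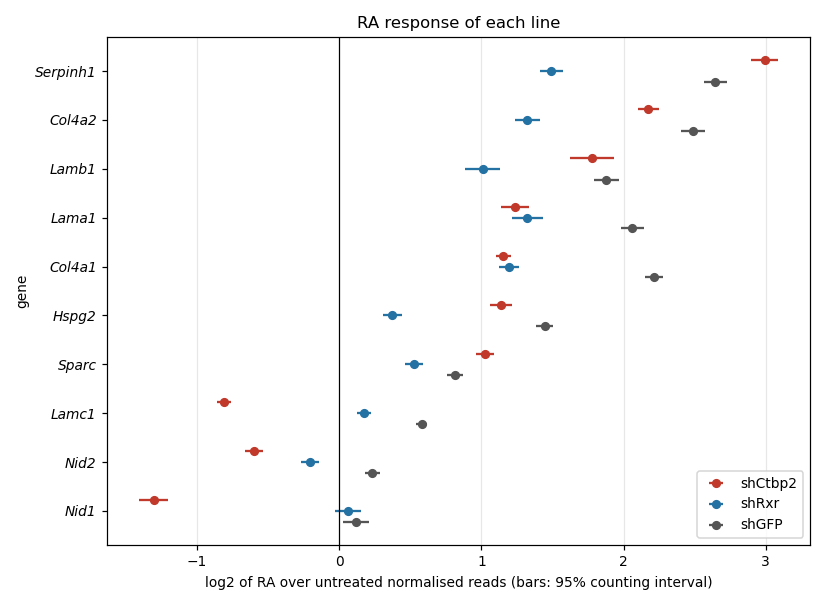
Log2 of RA over untreated normalised reads for the 10 genes, by line, with bars for 95% counting intervals; 1 library per treatment and line. Lamc1, Nid2 and Nid1 lie left of 0 in shCtbp2 cells, and the shRxr points of Serpinh1, Col4a2 and Hspg2 lie well left of the shGFP points.

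The next question was whether the RA response of the 10 genes differed between lines. This difference has no replicate and no test, and both knock-down lines are set against the same shGFP libraries. The shCtbp2 response was lower than that of shGFP by at least 1 on the log2 scale for 3 of the 10 genes (12.4% of all genes tested), Nid1 (-1.41), Lamc1 (-1.39) and Col4a1 (-1.05), and higher by at least 1 for 0 (2.72%). Serpinh1 (0.34) and Sparc (0.21) had the larger response in shCtbp2 cells. The shRxr response was lower by at least 1 for 4 of the 10 (4.47%), Col4a2 (-1.16), Serpinh1 (-1.15), Hspg2 (-1.07) and Col4a1 (-1.02), and higher by at least 1 for 0 (5.6%). All 10 differences were negative in shRxr cells, from -0.06 for Nid1 to -1.16 for Col4a2. The median difference over all genes tested was negative as well, at -0.09. With GC and length corrected none of the 4 was past 1.

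Set against shGFP at the same treatment, Lamb1 was at least 2-fold lower in RA in both knock-down lines, which share the shGFP library. In RA, 3 of the 10 genes were at least 2-fold lower in shCtbp2 cells than in shGFP cells (14.8% of all genes tested) and 0 higher (3.18%). They were Lamb1, 2.83-fold lower (2.67 to 3.01), Lamc1, 2.24-fold lower (2.17 to 2.32), and Lama1, 2.08-fold lower (1.99 to 2.18). Lama1 fell outside the limit when libraries were scaled to upper quartiles (log2 difference -0.90) or by medians of ratios (-0.95) and after the GC correction (-0.94), which left 2 genes. The sum of the 3 laminin chains was 8464 in shCtbp2_RA, against 19361 in shGFP_RA, while that of the collagen IV chains was 14825 in shCtbp2_RA, against 14856 in shGFP_RA. Untreated, Lamb1 was 2.64-fold lower in shCtbp2 cells (2.37 to 2.94), the only gene of the 10 at least 2-fold lower (2.34%), and 0 were at least 2-fold higher (1.39%). Nid1 was 1.95-fold higher (1.84 to 2.07) and Col4a1 1.93-fold higher (1.83 to 2.03) in untreated shCtbp2 cells, just outside the limit. The log2 difference between shCtbp2_RA and shGFP_RA had a Spearman correlation with GC content of 0.48 across genes, and its part in these differences was not tested.

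In shRxr cells 2 of the 10 genes were at least 2-fold lower than in shGFP cells in RA (2.62%) and 0 higher (3.74%). Lamb1 was 2.56-fold lower (2.41 to 2.72) and Lama1 2.51-fold lower (2.39 to 2.64), and Col4a2, at 2.0-fold lower (1.92 to 2.09), fell just outside the limit on the log2(value + 10) scale. Lamc1 was 1.48-fold lower (1.44 to 1.53) and Serpinh1 1.79-fold lower (1.73 to 1.86). Nid1 alone of the 10 was higher, 1.17-fold (1.10 to 1.25). The correlation of this difference with GC content across genes was -0.52, and its part was not tested. Untreated, 0 of the 10 were at least 2-fold higher (0.389%) or lower (0.0649%) in shRxr cells. The most distant were Lama1, 1.5-fold lower (1.39 to 1.63), and Lamb1, 1.4-fold lower (1.28 to 1.53).

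**Figure D4:**
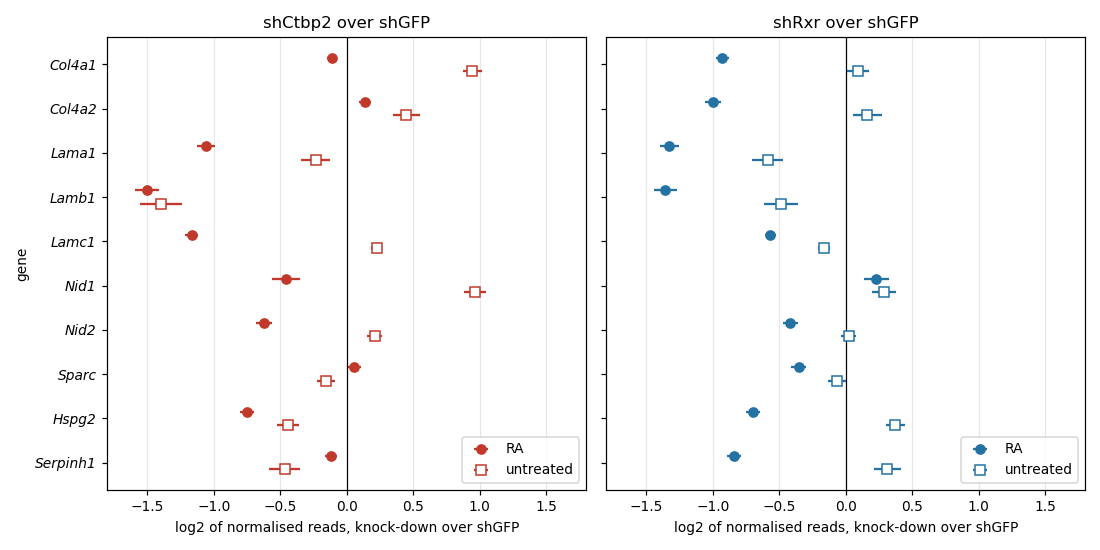
Log2 of normalised reads of each knock-down line over shGFP for the 10 genes, in RA (filled) and untreated (open), with bars for 95% counting intervals. Lamb1 lies below -1 at both treatments in shCtbp2 cells, and in shRxr cells all genes but Nid1 lie left of 0 in RA.

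With treatments standing in as replicates of a line, limma called 0 of the 10 genes raised (0.105% of all genes tested) and 0 lowered (0.0405%) in shCtbp2 cells against shGFP cells, and voom on the recovered reads also called 0. At an unadjusted p under 0.05 there was 1 of the 10, against 8.85% of all genes. It was Lamb1, with a log2 difference of -1.44 (SE 0.33, limma, unadjusted p 0.000842, adjusted p 0.122), which passed only when the shRxr line was left out (adjusted p 0.0132). Over all genes limma raised 13 and lowered 5, and this split was 35 and 34 when scaled by medians of ratios, 46 and 53 when scaled to upper quartiles and 1 and 2 after the GC correction. In shRxr cells against shGFP cells limma called 0 of the 10 raised (0%) and 0 lowered (0.00811%), and voom 0. At an unadjusted p under 0.05 there were 2, against 1.23% of all genes. They were Lama1, at -0.95 (SE 0.33, unadjusted p 0.0126), and Lamb1, at -0.91 (SE 0.33, unadjusted p 0.0167), both with a limma adjusted p of 0.999931.

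Other genes of the basement membrane and its handling were read as 4 lists, each beside a median log2 change of 0.07 over all genes tested, of which 10.8% rose and 4.63% fell. Of 25 other basement membrane components 17 were tested, 6 rose with RA and none fell, with a median of 1.02. Tinagl1, a secreted matricellular protein, rose by 3.14 (SE 0.29, limma, adjusted p 3.39e-05). It stood at 673 in shCtbp2_RA, 230.0 in shRxr_RA and 474 in shGFP_RA, against 56.2 in shCtbp2_UT, 27.6 in shRxr_UT and 36.2 in shGFP_UT, higher in RA in each line. Fbln1, or fibulin-1, rose by 1.65, the laminin alpha chains Lama3 and Lama4 by 1.60 each, Col4a5, another collagen IV chain, by 1.24, and Smoc1 by 1.19. Frem1 had the lowest log2 change, -0.98 (limma, adjusted p 0.108). Lama4 and Lama3 stayed low, at 29.7 to 92.3 and 64.3 to 109 in RA libraries.

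Of 20 genes that modify or crosslink collagen 14 were tested, 3 rose and none fell, with a median of 0.64. The 3 were Pxdn, the peroxidase that forms the sulfilimine crosslinks of collagen IV, by 1.91 (SE 0.29, limma, adjusted p 0.000879), Loxl1, a lysyl oxidase, by 1.35, and P4ha2, a prolyl hydroxylase subunit, by 1.02. Pxdn stood at 648 in shCtbp2_RA, 869 in shRxr_RA and 2103 in shGFP_RA, against 207 in shCtbp2_UT, 296 in shRxr_UT and 339 in shGFP_UT. The lowest change of the list was 0.03, for Loxl2. The median response was 0.89 in shCtbp2 cells, 0.27 in shRxr cells and 0.81 in shGFP cells.

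Of 15 receptors of basement membranes 13 were tested, 3 rose and none fell, with a median of 0.25. Itga3, an integrin chain that binds laminins, rose by 1.73 (SE 0.31, limma, adjusted p 0.00240), Bcam, a laminin receptor, by 1.35, and Dag1, dystroglycan, by 1.16. Itga6, another laminin-binding integrin chain, was the lowest at -0.64 (limma, adjusted p 0.145). Of 12 genes of matrix turnover 11 were tested, 6 rose and none fell, with a median of 1.23. Mmp15, a membrane-bound metalloproteinase, rose by 3.83 and Timp2, a metalloproteinase inhibitor, by 3.69. Bmp1, which processes matrix precursors, rose by 2.52, Mmp9, a gelatinase, by 2.27, Plau, the urokinase plasminogen activator, by 1.94 and Htra1, a serine protease, by 1.23. Timp1, another inhibitor, was the lowest at -0.16 (limma, adjusted p 0.727). Of the 55 genes tested in the 4 lists 18 rose and 0 fell.

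**Figure D5:**
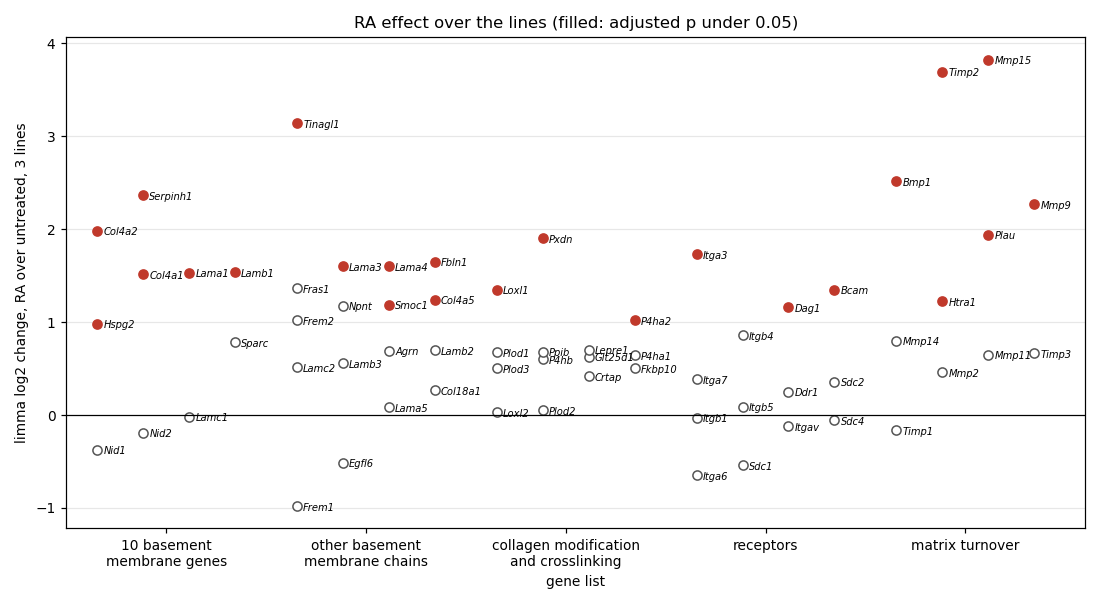
limma log2 change for RA over the 3 lines, for the 10 basement membrane genes and 4 further lists, one point per gene tested, filled where the adjusted p is under 0.05. Mmp15 at 3.83 and Timp2 at 3.69 are highest, and Frem1 at -0.98 is lowest.

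Across the 6 libraries, which share lines and treatments, each gene was set against the median profile of the other 9 on the scale log2(value + 10), as a description. Lama1 was closest (Pearson r 0.98), followed by Serpinh1 (0.90), Sparc (0.90), Lamb1 (0.89), Hspg2 (0.87), Col4a2 (0.86) and Col4a1 (0.77). Lamc1 (0.20), Nid2 (-0.17) and Nid1 (-0.53) did not follow it. Of 5909 genes outside the 10 with a mean of at least 50 and a log2 range of at least 1, 227 had an r of at least 0.95 with the median profile of all 10. The 5 most alike were Pacs1 (0.998), Crb2 (0.997), Galnt12 (0.994), Gas1 (0.994) and Plat (0.994). Plat, the tissue plasminogen activator, stood at 97.0 in shCtbp2_RA, 92.4 in shRxr_RA and 456 in shGFP_RA, against 3.31 in shCtbp2_UT, 7.53 in shRxr_UT and 19.3 in shGFP_UT.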

How the data were processed

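TruSeq libraries of F9 cell RNA were sequenced on a HiSeq instrument, per the labels' protocols. The submitters' processing notes name TopHat 1.4, HTSeq and mm9. The HTSeq version, its settings and the gene models were not given in the sources used here. In the deposited table every value is a log2 of reads scaled to 10000000 per library plus 1, as read from the values: unlogged, each library sums to 10000000, and 100% of values are whole reads within 1e-06 of a read. The 6 libraries held 9955808 to 13322506 reads, and 0 other columns of values were present.

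The 10 genes and all lists were chosen with earlier results of these data known. All 10 passed the minimum of a mean of 20 normalised reads, as did 12332 of 23886 genes with a read. limma 3.58.1 (R 4.3.3) was fitted with a trend on log2(value + 10), with line and treatment as terms. P-values were adjusted over all genes tested (Benjamini-Hochberg), and calls were made at 0.05. The fit had 2 residual and 11.2 prior degrees of freedom. The log2(value + 10) scale understates changes of low genes. With 1 library per group, single comparisons have no test. They are given as folds with 95% Clopper-Pearson intervals from the reads, for counting error only. Exonic length and GC content came from GENCODE M21 by Ensembl identifier (98.4% of genes tested), and promoter windows from RefSeq.

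All 10 genes are named, as are list genes past the threshold and the highest and lowest of each list, Ctbp2 and Rxra as a check of the labels, and the 5 genes most alike. Alternatives were the pseudocount, the minimum, library scaling, a correction for GC content and length, voom on recovered reads, and leaving out a line, a library or the line term. Figures were drawn with matplotlib 3.10.9, and the remaining steps ran in Python 3.11.15 (scipy 1.17.1, pandas 2.3.3, numpy 2.4.6).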

Additional observations from a re-analysis of the deposited data

Results flagged for a closer look

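In the values as scaled, nidogen and laminin gamma genes went opposite ways with RA in different lines. Each line has 1 library per treatment, so the differences were not tested. The RA response of Nid1 in shCtbp2 cells, minus that in shGFP cells, was -1.41 on the log2 scale, with a lower level in RA in shCtbp2 cells and a higher one in shGFP cells. The rise of Nid1 in shGFP cells was a log2 change of 0.12, and the median of all genes tested was also 0.12. Scaling by medians of ratios moves the response of that line by -0.11, so the direction for Nid1 is not settled there. For Lamc1 the same difference was -1.39 and for Nid2 -0.83, again with a lower level in RA in shCtbp2 cells and a higher one in shGFP cells. Among all genes tested, with a median difference of -0.13, these stood at percentile 3.43 for Nid1, 3.75 for Lamc1 and 18.8 for Nid2. In shRxr cells Nid2 was also lower in RA, and its response minus that in shGFP cells was -0.44. That was percentile 20.7 of all genes tested, whose median was -0.09. With GC and length corrected Nid1 and Nid2 were lower in RA in shGFP cells as well, with log2 changes of -0.09 and -0.12.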

How the results depend on the processing

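RA called 6 of the 10 genes raised, and 2 to 7 over 13 alternatives, with 2 when the shGFP line was left out. The alternatives without the shCtbp2 line and without shCtbp2_RA give the same RA log2 changes, so they are not separate checks. None of the 10 was called lowered in any of them. Over all genes the 1327 raised became 566 with a mean of at least 100 and 863 with no line term, and 375 to 1747 when a line or the shCtbp2_RA library was left out. The 571 lowered became 246 with a mean of at least 100, 944 when scaled by medians of ratios, 862 when scaled to upper quartiles, 1300 after the GC correction, 242 with no line term, and 89 to 1498 when a line or that library was left out. Without the shCtbp2 line, or without shCtbp2_RA, the RA log2 change turned positive, and over the left-out lines it ran from -0.32 to 0.38 for Lamc1, from -0.62 to 0.089 for Nid1 and from -0.40 to 0.014 for Nid2. For shCtbp2 against shGFP the counts of 13 raised and 5 lowered became 1 and 3 with a pseudocount of 1, a mean of at least 100 or voom, 0 and 0 with no filter, 35 and 34 when scaled by medians of ratios, 46 and 53 when scaled to upper quartiles, and 1 and 2 after the GC correction. They ran from 0 to 99 raised and 0 to 201 lowered when the shRxr line or shCtbp2_RA was left out, with 1 of the 10 genes, Lamb1, lowered without the shRxr line. Without shCtbp2_RA the shCtbp2 log2 difference turned to 0.12 for Lamc1 and 0.099 for Nid2, against -0.47 and -0.21 without the shRxr line. The Sparc difference turned to 0.021 with upper quartiles and to 0.0081 with medians of ratios. For shRxr the 1 gene lowered became 0 with no filter, without the shCtbp2 line and without shCtbp2_RA. After the GC correction RA left 4 of the 10 genes at least 2-fold higher in shCtbp2 cells and 3 lower. Over all genes tested 981 were at least 2-fold lower there, and the count higher is not given here. With that correction 0 of the 10 had an shRxr response lower than that of shGFP by 1. The cause of these changes was not tested. Fewer genes enter with a mean of at least 100, and fewer libraries when one is left out, but counts rose as well as fell in the latter. Scaling moved the log2 change of all genes by -0.11 to 0.15 in pairs of libraries, so smaller differences have no settled direction. With it the RA differences between shCtbp2 and shGFP cells turned to 0.04 for Col4a1 and 0.03 for Serpinh1, with equal upper quartiles. Of the other values, single genes included, 1158 stayed the same and 193 moved, beyond the counting interval for folds and ratios or beyond a set ratio for counts. Among limma values of single genes, 10 changed sign, 10 lost a call and 3 gained one. The line term pairs the RA and untreated library of each line, and the fit with no line term is the unpaired one, with 5 of the 10 genes raised: Hspg2 and Lamb1 were lost and Sparc was gained.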
